A study of Mus musculus with 8 samples.

Results

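Sebaceous gland marker genes are described here: Mgst1, Mc5r, Elovl3, Scd3, Soat1, Awat2, Dgat2l6 and Krt79, a list of 8 genes that mark sebocytes or the upper hair follicle from which the gland grows. Of the 8, 7 had a row of the array with exactly 1 gene symbol, out of 19938 genes named in this way. Each of the 7 had a single row. Soat1, which makes cholesterol esters, was not analysed here. The genes were named with earlier results of these data known, and no level or difference enters the rule, so dim rows were kept.

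Full-thickness skin was taken from mouse embryos at E17.5, shortly before birth, on a mixed background of C57BL6 and SV129. The arrays carried RNA of 4 embryos labelled PPARgamma wildtype, called control here, and of 4 labelled PPARgamma null or PpargΔ/Δ. The labels give neither the deleted part of Pparg nor how the deletion was made, and they name no litter or sex, so that p-values measure the spread between these RNAs. Values are log2 RMA values, where a difference of 1 is a doubling. Array medians lay between 6.93 and 6.96, and pairs of arrays correlated at r = 0.989 to 0.994 across all rows. Pparg itself read 8.94 ± 0.13 in control skin and 9.12 ± 0.10 in skin labelled Pparg null (log2 values, SD, n = 4 each), with overlapping groups. Directions are given by these labels, and arrays of the second group are called null-labelled.

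Sebaceous glands bud from the upper hair follicle late in fetal life. Their sebocytes fill with triglycerides, wax esters and cholesterol esters and release this sebum by bursting. PPARgamma, the nuclear receptor encoded by Pparg, is known as a driver of lipid genes in both sebocytes and adipocytes. Several sebocyte genes are also used by fat cells, epidermis or follicle keratinocytes, and whole skin averages over all of them. In such bulk samples fewer cells of a type and less RNA per cell cannot be told apart.

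Promoter sequence is shown for Mgst1, the member that passed the test, and for Krt79, the brightest member, which did not. The windows are the 250 bases before each annotated start, 5′ to 3′ on the gene's strand, from RefSeq on GRCm38.p6. Capitals mark matches on either strand to the GC box GGGCGG and to the core of the antioxidant response element, TGACNNNGC.
Mgst1, upstream start, chr6:138140277-138140526, plus strand: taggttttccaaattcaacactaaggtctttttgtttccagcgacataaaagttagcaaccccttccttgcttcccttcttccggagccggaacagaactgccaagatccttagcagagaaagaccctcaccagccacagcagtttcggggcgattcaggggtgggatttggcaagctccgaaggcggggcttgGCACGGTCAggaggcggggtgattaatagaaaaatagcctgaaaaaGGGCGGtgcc
Mgst1, downstream start, chr6:138141337-138141586, plus strand: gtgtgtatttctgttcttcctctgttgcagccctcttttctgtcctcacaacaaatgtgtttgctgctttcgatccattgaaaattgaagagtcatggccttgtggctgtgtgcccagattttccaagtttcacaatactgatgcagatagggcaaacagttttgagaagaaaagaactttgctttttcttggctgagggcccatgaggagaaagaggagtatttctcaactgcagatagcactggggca
Krt79, chr15:101940325-101940574, minus strand: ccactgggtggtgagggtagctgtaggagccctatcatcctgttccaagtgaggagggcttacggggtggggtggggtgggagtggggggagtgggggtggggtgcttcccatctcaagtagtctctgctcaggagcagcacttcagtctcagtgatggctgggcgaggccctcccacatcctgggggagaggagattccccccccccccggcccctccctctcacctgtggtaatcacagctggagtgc
In the first Mgst1 window the GC box begins 10 bases before the start, and the antioxidant core, read on the other strand, begins 56 bases before it; the second Mgst1 window and the Krt79 window hold neither. Among all 32851 windows of this length, 32.7% held the GC box and 10.2% the antioxidant core. The hexamer AGGTCA, of which PPAR response elements are built, was in none of the 8 windows searched, which belong to 6 of the listed genes (Mgst1 and Awat2 with 2 each, Krt79, Scd3, Dgat2l6 and Soat1), and in 14% of all windows, and its direct repeat, with 1 base between the copies, was in 0.0335% of all windows. No match says only that these letters are not in these 250 bases, and Mc5r and Elovl3 were not searched.

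The markers lay at very different heights on the array. Krt79 ranked between the 81.1st and 93.2nd percentile of all rows and Mgst1 between the 77.2nd and 86.0th. Mc5r ranked from 30.5 to 45.6. The 4 genes that encode enzymes of sebum lipid synthesis were the dim ones, with Awat2 at 26.8 to 31.2, Scd3 at 22.6 to 28.0, Elovl3 at 14.3 to 25.7 and Dgat2l6 at 13.0 to 20.6. Genes had to exceed the 30th percentile of the array on at least 4 of 8 arrays to enter the main test. Mgst1, Mc5r and Krt79 did so on all 8 arrays, and the other 4 did not pass. Awat2 came closest, above the line on 3 control arrays and on none of the others. The deposited table holds no detection call, so whether the dim rows report transcript was not tested, and the genes most particular to the gland by their known roles were not shown to be expressed here. Ranks describe rows and not amounts of RNA, since probes differ in brightness.

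**Figure D1:**
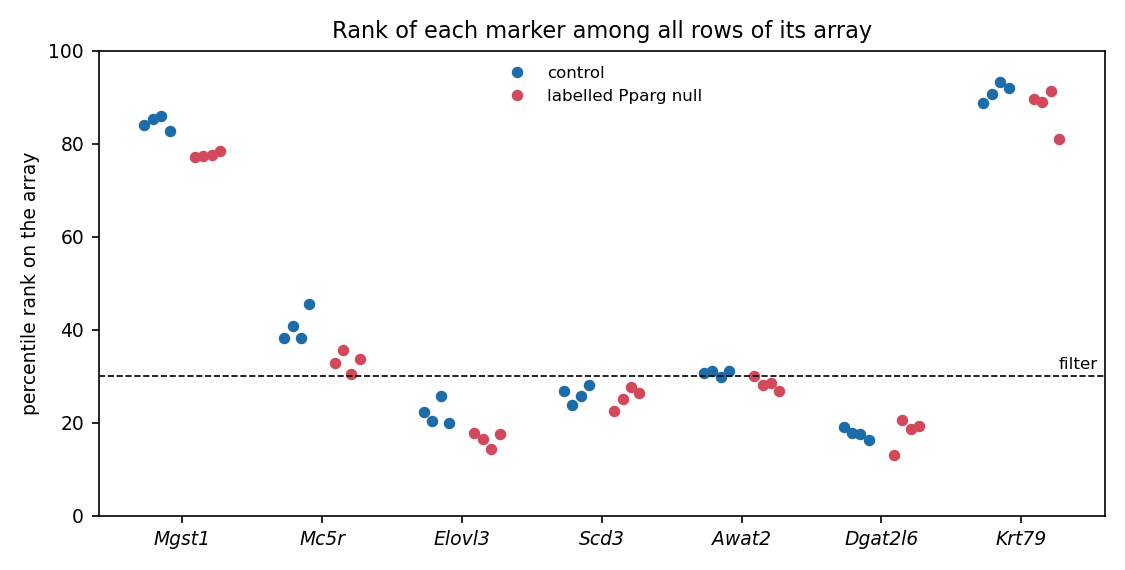
Percentile rank of each marker among all rows of its array (vertical axis, 0 to 100), with 4 control arrays in blue and 4 null-labelled arrays in red, and the dashed line at the 30th percentile. Krt79 and Mgst1 lie at or above 77.2, Mc5r between 30.5 and 45.6, and the 4 lipid enzyme genes at or below 31.2.

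Mgst1 was lower in skin labelled Pparg null, and it was the only member that passed. Mc5r and Elovl3 were also lower on all arrays of that group, but missed the threshold. Awat2, Scd3, Dgat2l6 and Krt79 overlapped between the groups. In the main test 1 of 3 members passed at a limma adjusted p of 0.05, where 17 of 15174 genes, or 0.112%, passed as lower. With no brightness filter 1 of 7 passed, against 0.0752% of 19938 genes. Groups did not overlap, with the null-labelled arrays below, for 3 of the 7 members and for 1.48% of all 19938 genes. The median log2 difference of the 7 was -0.37, which is the value of Krt79, whose groups overlapped. That of all genes was 0.001.

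**Figure D2:**
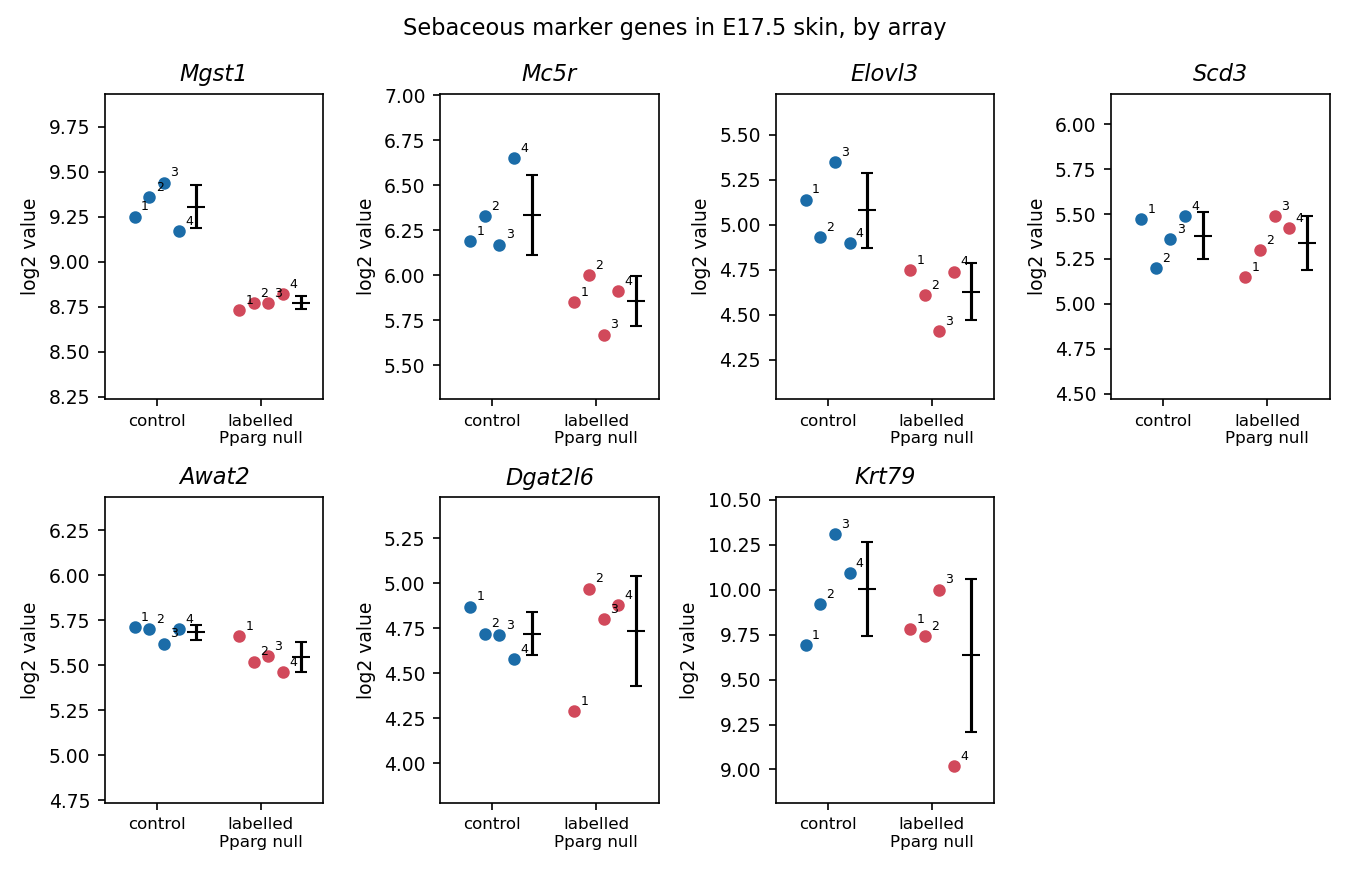
Log2 value (vertical axis, each panel spanning the same height) of each marker on 4 control arrays (blue) and 4 null-labelled arrays (red), numbered by replicate, with the mean and SD in black. All red points lie below all blue ones for Mgst1, Mc5r and Elovl3, and the groups overlap for the other 4 genes.

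Mgst1 encodes microsomal glutathione transferase, a membrane enzyme that conjugates and reduces reactive lipids and is used as a marker of mature sebocytes, although many other cell types make it. It read 9.25, 9.36, 9.44 and 9.17 on control arrays 1 to 4 and 8.73, 8.77, 8.77 and 8.82 on null-labelled arrays 1 to 4. The second group was tightly packed, and its highest array lay well under the lowest control array. The means were 9.31 ± 0.12 and 8.77 ± 0.04 (log2 values, SD, n = 4 each), a 1.45-fold lower level, with a log2 difference of -0.53 (SE 0.065, 95% confidence interval -0.68 to -0.39; limma adjusted p = 0.0196). Ordered by p, it was number 8 of 15174 genes. By exact permutation, two-sided, p was 0.0286, which is the lowest value open to 4 against 4 arrays.

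The size of the Mgst1 difference hardly moved when an array was left out, from -0.58 to -0.49, but the call did. Without control array 2 or 3, limma's adjusted p was 0.111 or 0.0608. Without null-labelled array 1, 2 or 3 it was 0.103, 0.0922 or 0.063. The call held when control array 1 (0.0436) or 4 (0.0321), or null-labelled array 4 (0.0341), was dropped. In the fits with no brightness filter the call was lost in 7 of the 8, and held only without control array 4 (0.0369).

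Mgst1 belongs to a family of small membrane enzymes, and none of its relatives passed. Mgst2 read 8.12 ± 0.06 in control skin and 8.23 ± 0.25 in skin labelled Pparg null, and Mgst3 read 8.22 ± 0.08 and 8.20 ± 0.04 (log2 values, SD, n = 4 each). The prostaglandin E synthase gene Ptges differed by -0.01, the leukotriene genes Alox5ap and Ltc4s by -0.05 and -0.03. Of the 6 family members tested, 1 passed, where 0.112% of all tested genes passed as lower. It was Mgst1 itself, so the count repeats that call and says nothing more about the family. Set against the mean of Mgst2 and Mgst3 on the same array, Mgst1 differed by -0.58, labelled Pparg null minus control, on the log2 scale. Exact two-sided permutation p was 0.0286, the lowest value open to 4 against 4 arrays. Adjusted over 6 such family comparisons it was 0.0572 and missed the threshold. The adjusted value follows from how many of the 6 reach this floor, whatever the size. These comparisons, here and below, were chosen after values were seen. They give no support beyond the member differences themselves.

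Over the 8 arrays the genes most like Mgst1 among 15174 were Hcar1, the lactate receptor of fat cells (r = 0.970), Hrct1 (r = 0.969) and Ptger3, a prostaglandin E2 receptor (r = 0.969). All of them were themselves lower past the threshold, at log2 differences of -0.63, -0.37 and -0.63. Within groups, after each group's mean was taken off, the correlations were 0.65, 0.54 and 0.64. These are descriptions over 8 arrays that share the group difference.

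Part of the white adipocyte markers were clearly lower along with Mgst1. Of 14 such genes with a row, Mgst1 not among them, 13 lay below control, and 4 of the 12 tested were past the threshold, all lower, where 0.112% of all tested genes were. These were Cd36 (-0.92), which takes up fatty acids, Fabp4 (-1.13), which binds them, the lipase Lpl (-1.0) and the glycerol channel Aqp7 (-0.85; log2 differences). The mean of all 14 genes per array ran from 7.83 to 8.11 in control skin and from 7.48 to 7.64 in skin labelled Pparg null. Adipoq, which encodes the fat cell hormone adiponectin, was dim at 5.40 ± 0.28 in control skin and differed by -0.83 (limma adjusted p = 0.153, no filter). The lipid droplet gene Plin1 read 7.10 ± 0.33 there (log2 values, SD, n = 4) and differed by -0.88 (limma adjusted p = 0.128). Groups did not overlap for 7 of the 14, all lower, where 1.48% of all 19938 genes were so separated. The rest overlapped, among them Cebpa (-0.09), Lipe (-0.14) and Pnpla2 (-0.08). Pparg (0.18), the only one above control, overlapped too. What part white adipocytes had in the Mgst1, Mc5r and Elovl3 differences was not tested.

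Mc5r encodes the melanocortin 5 receptor, which responds to melanocortin peptides and is needed for normal sebum output in mice; fat and muscle also use it. On control arrays 1 to 4 it read 6.19, 6.33, 6.17 and 6.65, and on null-labelled arrays 1 to 4 it read 5.85, 6.0, 5.67 and 5.91. Control array 4 was the highest, and all null-labelled arrays lay below all controls. The means were 6.34 ± 0.22 and 5.86 ± 0.14 (log2 values, SD, n = 4 each). The log2 difference was -0.48, with a 95% confidence interval of -0.72 to -0.23, and the gene missed the threshold (limma adjusted p = 0.545, unadjusted p = 0.00154; exact two-sided permutation p = 0.0286). Without control array 4 the difference was -0.37, the value nearest 0 with 1 array left out. Non-overlap of this kind, with the null-labelled arrays below, was found for 1.67% of the tested genes.

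The rest of the melanocortin system went several ways. Mrap encodes an accessory protein of melanocortin receptors and is also an adipocyte gene. It read 6.34, 6.45, 6.41 and 6.22 in control skin and 5.96, 6.08, 5.92 and 6.13 in skin labelled Pparg null. These groups did not overlap either, and the log2 difference of -0.34 missed the threshold (limma adjusted p = 0.295). The pigment cell receptor Mc1r differed by -0.02 and the brain receptor Mc4r by 0.09. Pomc, the gene of the melanocortin precursor, differed by 0.09, and the other accessory gene, Mrap2, by 0.07. None of the 6 tested members passed in limma, where 2, Mc5r and Mrap, had an unadjusted p below 0.05, as did 3.61% of all tested genes. Against the mean of Mc1r and Mc4r on the same array, the Mc5r difference was -0.52 (exact two-sided permutation p = 0.0286, adjusted 0.0572).

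Genes most like Mc5r over the 8 arrays were the mitochondrial carbonic anhydrase Car5b (r = 0.963), the xylosyltransferase Xxylt1 (r = 0.961) and Rabep2 (r = 0.960). For these the correlations within groups were 0.89, 0.93 and 0.87, and control array 4 was the highest array for each of the 3, as it was for Mc5r. Car5b differed by -0.57, and none of them passed (limma adjusted p = 0.643 for Car5b and 0.9995 for the other 2).

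Elovl3 encodes an elongase that builds saturated and monounsaturated very long fatty acids in sebaceous glands and in brown fat. It was dim, at 5.14, 4.93, 5.35 and 4.90 on control arrays 1 to 4 and 4.75, 4.61, 4.41 and 4.74 on null-labelled arrays 1 to 4. All of the latter lay below all controls, by a narrow margin between control array 4 and null-labelled array 1. The means were 5.08 ± 0.21 and 4.62 ± 0.16 (log2 values, SD, n = 4 each), a log2 difference of -0.45 (95% confidence interval -0.70 to -0.21). In the fit with no brightness filter it did not pass (limma adjusted p = 0.693, unadjusted p = 0.00218; exact two-sided permutation p = 0.0286). Among the 4764 genes under the filter, 0.903% had groups that did not overlap with the null-labelled arrays below.

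None of the elongases that passed the filter was called. Elovl1 and Elovl4, which serve the ceramides of the epidermal barrier, differed by 0.04 and 0.11, and Elovl5, Elovl6 and Elovl7 by -0.05, 0.10 and 0.11 (log2 differences). In limma none of these 5 had an unadjusted p below 0.05, and all their groups overlapped. Relative to the mean of these 5 on the same array, Elovl3 differed by -0.52 (exact two-sided permutation p = 0.0286, adjusted 0.0572). Of the 7 brown fat markers with a row, Elovl3 included, 4 lay below control and 3 above, and none passed in limma. Their mean per array ran from 6.58 to 6.64 in control skin and from 6.54 to 6.65 in skin labelled Pparg null. That mean blends opposite moves, since the brown fat marker Cidea lay higher by 0.24, with groups that did not overlap. Ucp1, the uncoupling protein that defines brown fat, was dim and under the filter, ranking from 23.4 to 28.3. It read 5.45 ± 0.03 in control skin (log2 values, SD, n = 4) and differed by -0.03, and whether this row reports transcript was not tested. What part brown fat had in the Elovl3 difference was not tested.

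Scd3 encodes a mouse sebocyte member of the stearoyl-CoA desaturase family, whose enzymes put a double bond into saturated fatty acids. Control arrays 1 to 4 read 5.47, 5.20, 5.36 and 5.49, and null-labelled arrays 1 to 4 read 5.15, 5.30, 5.49 and 5.42. The groups covered nearly the same range. The log2 difference was -0.04, with a 95% confidence interval of -0.23 to 0.16 (limma adjusted p = 0.99996, no filter), and without null-labelled array 1 it was 0.03. Its relative Scd1, the main desaturase of adult skin and fat, differed by -0.20 (interval -0.44 to 0.04), Scd2 by -0.02 and the dim Scd4 by 0.00. The Scd genes are close copies, and the files do not show whether their probes tell them apart.

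Awat2 encodes the acyl-CoA wax alcohol acyltransferase that joins fatty alcohols to fatty acids into the wax esters of sebum and eyelid glands, and it lies on the X chromosome. It read 5.71, 5.70, 5.62 and 5.70 on control arrays 1 to 4 and 5.66, 5.52, 5.55 and 5.46 on null-labelled arrays 1 to 4. Labelled-null array 1 reached above control array 3, and the other 3 arrays of its group lay below all controls. The means were 5.68 ± 0.04 and 5.55 ± 0.08 (log2 values, SD, n = 4 each). The difference of -0.14 had a 95% confidence interval of -0.26 to -0.01 and did not pass (limma adjusted p = 0.99996, no filter; exact two-sided permutation p = 0.0571). Without 1 array it ranged from -0.17 to -0.11.

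Dgat2l6, a neighbour of the same acyltransferase family and also X-linked, was the dimmest marker. It read 4.87, 4.72, 4.71 and 4.58 on control arrays 1 to 4 and 4.29, 4.97, 4.80 and 4.88 on null-labelled arrays 1 to 4. Labelled-null array 1 was the lowest of all 8, while array 2 of that group was the highest. The groups differed by 0.02 on the log2 scale (95% confidence interval -0.29 to 0.32; limma adjusted p = 0.99996, no filter). It was 0.17 without null-labelled array 1, and it turned below 0 without control array 4 (-0.03) or null-labelled array 2 (-0.06), 3 (-0.01) or 4 (-0.03).

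Other acyltransferases of this family did not pass either. Awat1, a further wax ester enzyme, differed by -0.09, and the triglyceride enzyme Dgat2, whose row was among the bright ones, by 0.03. The dim Mogat1, a monoacylglycerol acyltransferase, read 4.86 ± 0.11 in control skin and 4.66 ± 0.10 in skin labelled Pparg null (log2 values, SD, n = 4 each), with groups that did not overlap and a limma adjusted p of 0.99996 with no filter. Relative to the mean of Awat1 and Dgat2, Awat2 differed by -0.10 and Dgat2l6 by 0.05 (exact two-sided permutation p = 0.514 and 0.8, adjusted 0.72 and 0.8). For Scd3 against Scd1 and Scd2 this difference was 0.07 (p = 0.6, exact two-sided permutation, adjusted 0.72).

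**Figure D3:**
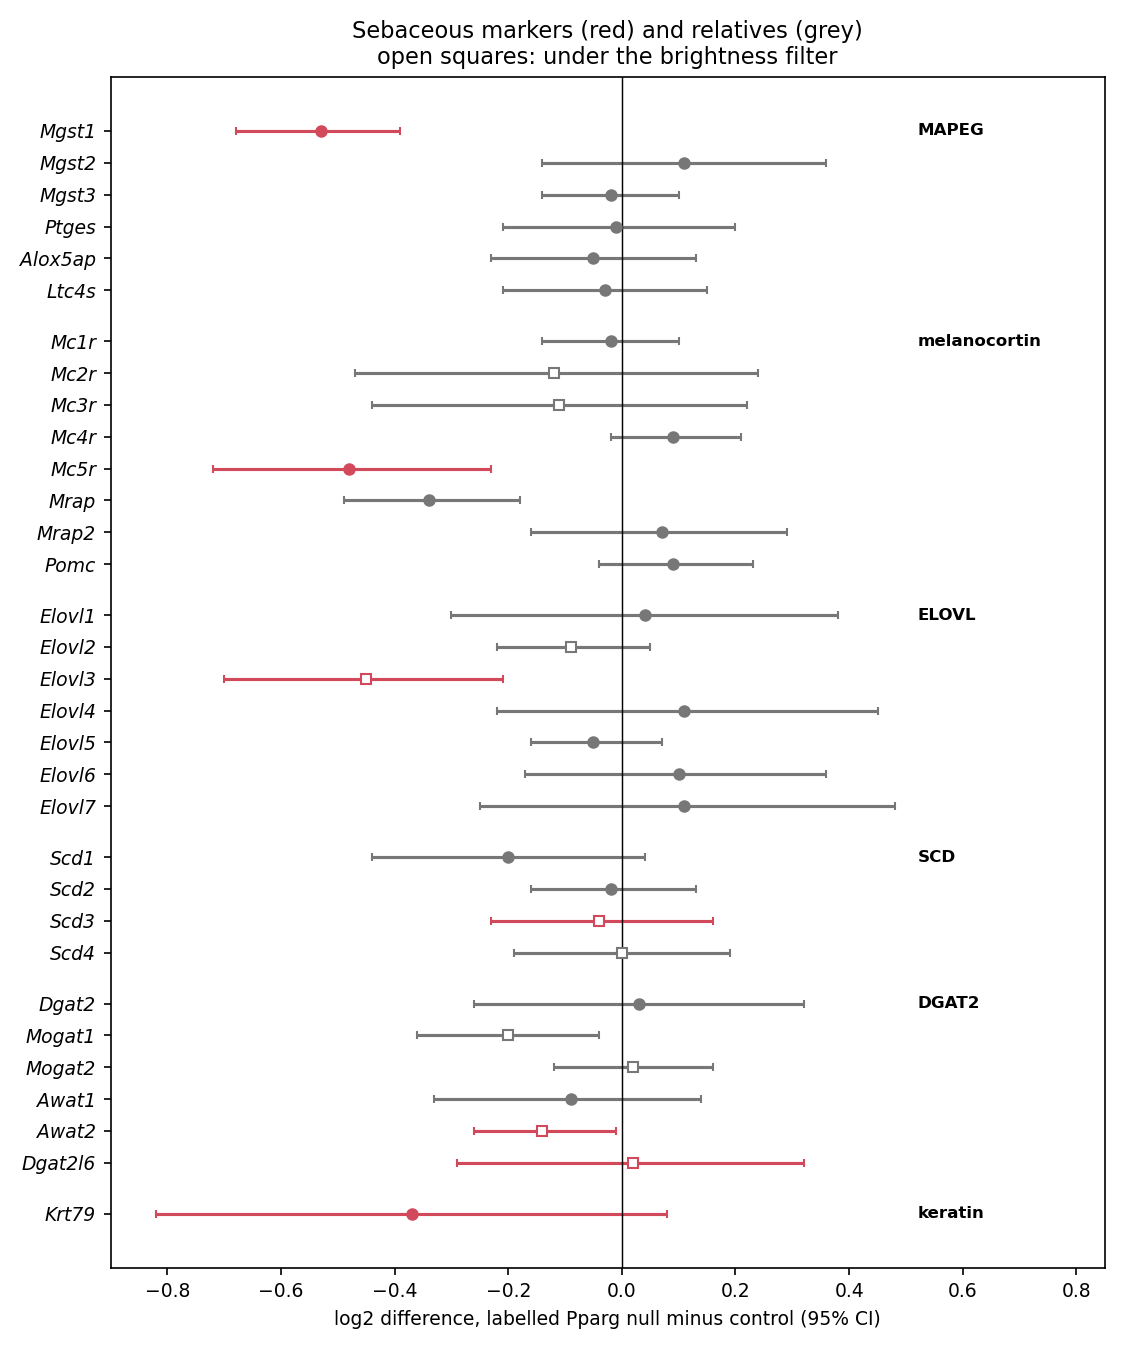
Log2 difference, labelled Pparg null minus control, with its 95% confidence interval (horizontal axis), for the markers (red) and their family relatives (grey); open squares are genes under the brightness filter. Mgst1 at -0.53, Mc5r at -0.48 and Elovl3 at -0.45 lie left of their relatives, with Mrap at -0.34 nearest to Mc5r, while Scd3, Awat2 and Dgat2l6 lie among theirs.

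Krt79 encodes a keratin of the upper follicle canal and of the duct that opens the sebaceous gland. On control arrays 1 to 4 it read 9.69, 9.92, 10.31 and 10.09, and on null-labelled arrays 1 to 4 it read 9.78, 9.74, 10.00 and 9.02. Labelled-null array 4 lay far below the other 7 arrays, which overlapped. The means were 10.00 ± 0.27 and 9.64 ± 0.43 (log2 values, SD, n = 4 each). The log2 difference of -0.37 had a 95% confidence interval of -0.82 to 0.08 and did not pass (limma adjusted p = 0.9995; exact two-sided permutation p = 0.229). Without null-labelled array 4 it was -0.16, and without null-labelled array 3 it was -0.49.

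The genes most like Krt79 shared that low array. Vdr, the vitamin D receptor of follicle keratinocytes, read 7.63 on null-labelled array 4 and 8.02 to 8.38 on the other 7. The lipoxygenase gene Alox12e read 6.76 there and 7.44 to 7.96 elsewhere, and Ctnnd2, a catenin, read 6.93 against 7.31 to 7.63. Their correlations with Krt79 over the 8 arrays were 0.987, 0.987 and 0.980, and 0.98 for each within groups. Markers of the inner root sheath and hair shaft had a mean per array of 6.83 to 7.32 in control skin and 6.63 to 7.03 in skin labelled Pparg null; 14 of 16 with a row lay below control and none passed in limma. Their part in the Krt79 values was not tested.

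**Figure D4:**
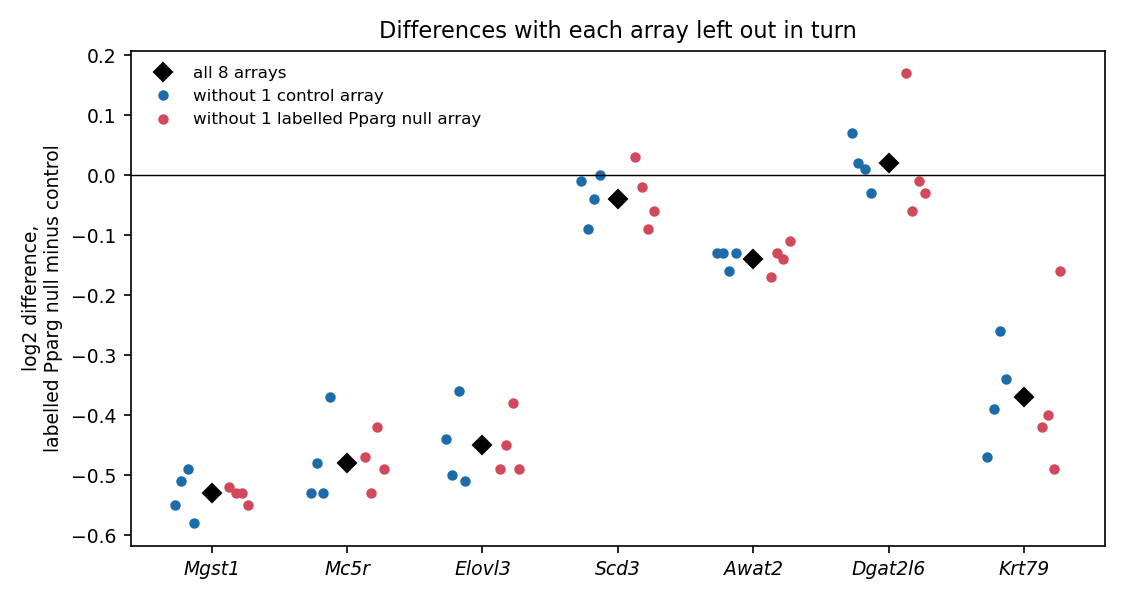
Log2 difference, labelled Pparg null minus control (vertical axis), with all 8 arrays (black diamonds) and with 1 control array (blue) or 1 null-labelled array (red) left out. Mgst1 stays between -0.58 and -0.49, Krt79 spreads from -0.49 to -0.16, and Dgat2l6 and Scd3 cross 0.

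Further genes of the sebaceous lineage gave no call. Of 10 tested regulators and duct markers, 6 lay below and 4 above control, with a median log2 difference of -0.09 against -0.001 for all tested genes, and none passed in limma. Lgr6, a stem cell receptor of the upper follicle, differed by -0.21, and the follicle keratin Krt75 by -0.17. Prdm1, a repressor linked to sebocyte differentiation, differed by 0.07, Lrig1, which marks the stem cells beside the gland, by -0.07, and Gata6, a factor of the sebaceous duct, by -0.13. In limma 0 of the 10 tested genes had an unadjusted p below 0.05.

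The other lipid genes used by sebocytes split both ways. Of 21 tested, 12 lay below and 9 above control, with a median of -0.02, and none passed. Plin2, which coats the lipid droplets of sebocytes and many other cells, read 9.42 ± 0.09 in control skin and 9.24 ± 0.04 in skin labelled Pparg null (log2 values, SD, n = 4 each; limma adjusted p = 0.9995). The lipogenic regulator Srebf1 differed by -0.14. Both had groups that did not overlap, as did Cidea, a droplet protein of sebocytes and brown fat, which lay higher in skin labelled Pparg null at 6.34 ± 0.05 against 6.10 ± 0.08 (log2 values, SD, n = 4 each; limma adjusted p = 0.582); 0.784% of tested genes were separated in that direction. Separation with the null-labelled arrays below, as for Plin2 and Srebf1, was found for 1.67% of tested genes. These 3 were the genes of the list with an unadjusted limma p below 0.05, as were 3.61% of all tested genes. Far2, which makes the fatty alcohols of wax esters, varied most of the list from array to array. It read 8.98, 7.68, 8.19 and 8.60 in control skin and 7.91, 8.37, 7.94 and 10.58 in skin labelled Pparg null. Null-labelled array 4 was far above the rest, and control array 1 was the highest of its group. For Krt79, Vdr, Alox12e and Ctnnd2 the same arrays were each the lowest of their group. Why these arrays stood apart together was not tested.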

How the data were processed

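Per the submitters' processing notes, the authors made the deposited log2 values with RMA (Affymetrix Expression Console). This method subtracts background, gives all arrays the same quantiles and combines the probes of a row, which hides any shift common to all genes. Their versions, build and filters: not given in the sources used here. The labels' protocols give 100 ng of RNA per array, amplified by a kit for whole transcripts. The table held 35556 rows, of which the platform annotation gave 1 symbol to 21789. Symbols were updated by gene ID through RefSeq (GRCm38.p6) for 21698, and a gene with several rows was represented by the brightest.

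Groups follow the titles. Differences are labelled Pparg null minus control, fitted by limma 3.58.1 (R 4.3.3) (lmFit, eBayes; two-sided), and p-values were adjusted by Benjamini-Hochberg over all genes tested: 15174 genes above the 30th percentile on at least 4 arrays or, for dim members, all 19938. The step was tested on simulated data. Single values were tested by exact permutation over 70 assignments. Precision is limited by 4 arrays per group.

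Members and lists were chosen with earlier results of these data known, and the family comparisons after values were seen, with relatives past the filter. Named are all members, their relatives, and genes of the pathway lists past the threshold or with the smallest p. Also named are the 3 genes most correlated with each bright member. Ptges, Alox5ap, Ltc4s, Prdm1, Lrig1, Gata6 and Far2 were added for their roles. So were the adipocyte markers past the threshold and Adipoq, Plin1, Cebpa, Lipe, Pnpla2 and Pparg. Alternatives were other filters, scalings, priors, weights, a replicate block, row rules, an Xist covariate, and leaving out arrays.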

Additional observations from a re-analysis of the deposited data

Results flagged for a closer look

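Among the 58 genes of the marker, family and sebaceous lists, 116 groups of 4 arrays were examined for 1 array far from the rest, and 5 had one, where chance gives about 1 in 20. The gap to the nearest array is given as a share of the group's range. The marker Awat2 read 5.62 on control array 3, with 5.70 to 5.71 in the rest of that group (gap 0.937). Far1, a fatty alcohol enzyme, read 9.06 on null-labelled array 4, where the rest of its group read 9.19 to 9.20 (gap 0.904). Scd2 read 11.41 on control array 4 against 11.49 to 11.51 (gap 0.844). Mc3r read 5.17 on null-labelled array 3 against 5.51 to 5.57 (gap 0.843), and Mc4r read 5.73 on control array 3 against 5.82 to 5.83 (gap 0.937).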

How the results depend on the processing

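Of the 7 markers, Mgst1, Mc5r, Elovl3, Awat2 and Krt79 kept their direction under every alternative that tested them. Scd3 ranged from -0.09 to 0.03 with 1 array left out, above 0 only without null-labelled array 1, and Dgat2l6 ranged from -0.06 to 0.17 with 1 array left out. Mgst1 stayed between -0.58 and -0.49 with 1 array left out and lost its call in 5 of these 8 fits with the filter and in 7 of 8 without it, and it was -0.57 without control array 1 and null-labelled array 4 together (limma adjusted p = 0.0605), which left 0 members past the threshold with or without the filter. Its limma adjusted p ran from 0.00878 to 0.153 over 19 alternatives. With every row tested on its own it was -0.53 with an adjusted p of 0.082, and 0 members and 1 gene passed. At an adjusted p of 0.01, 0 members and 3 genes passed, and with the Xist covariate 11 genes passed, Mgst1 among them in the filtered fit but 0 members with no filter. Fits with 1 array left out called 3 to 15 genes with the filter, and 0 to 1 members with or without it. Replicate numbers showed no pairing: deviations of control and null-labelled arrays of numbers 1 to 4 correlated at -0.306, 0.204, 0.05 and -0.03, and none correlated best with its own number. With the replicate block, Mgst1 was -0.53 with an adjusted p of 0.153, 0 members passed with or without the filter, and 1 gene passed instead of 18. The cause of these changes was not tested. Other scalings moved the median of all genes by at most 0.02.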
